A study of Gallus gallus with 20 samples.

Results

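The hypothalamus of male Korat chickens, a Thai crossbred meat chicken, was compared between birds of low and high residual feed intake (RFI), the feed a bird eats beyond what its weight and growth predict. The comparison takes 10 of the 20 libraries of the series, chosen by title: 5 low RFI libraries, from birds that ate less than predicted, and 5 high RFI libraries, from birds that ate more. All 28021 genes of the count table entered, and 15179 had enough counts to be tested. All birds were raised singly in cages with free access to commercial feed and came from 1 population of 200 chicks. At 10 weeks the 10 birds of lowest and the 10 of highest RFI were taken, and the RNA of each group was combined into 5 pools. The groups are the ends of a range within 1 population and carry no treatment. A p-value here sets the group difference against the spread between pools, and the spread between birds within a pool is not seen. The question was which genes differ between the hypothalami of feed-efficient and feed-inefficient birds.

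The hypothalamus reads hormonal and nutrient signals and sets appetite and energy use. In its infundibular (arcuate) nucleus, neurons that make NPY and AGRP promote feeding and neurons that make POMC-derived peptides and CART reduce it. Other hypothalamic neurons release peptides and dopamine that govern the pituitary, and serotonin, noradrenaline and acetylcholine neurons of neighbouring regions act on these circuits. Since each pool is a piece of tissue, fewer cells of a type and less RNA per cell cannot be told apart.

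Each library held 11418600 to 12647034 counts, and 13.9 to 20.1% of counts came from mitochondrial genes. The mitochondrial share averaged 16.5% ± 2.16 in low RFI libraries and 15.6% ± 1.52 in high RFI libraries (SD, n = 5 each), a difference that an exact two-sided permutation test over all assignments of the libraries did not separate from the spread (p = 0.508). The same exact test gave p = 0.833 for the number of genes with a count and p = 0.937 for the total. Low RFI library 2 stood apart from the other 9. On the first principal component, which held 33.4% of the variance of log2(CPM + 1), it scored 52, against -23 to 15.5 for the others. CPM here relate each count to the TMM-scaled library size. In low RFI library 2, 50 genes of at least 10 CPM were at least 10 times as high as in any other library, and no other library had such a gene. They included ASMT, TPH1 and TTR. ASMT, the last enzyme of melatonin synthesis, was at 1070 CPM, against at most 2.16 CPM in the others. TPH1, which starts serotonin synthesis in the pineal gland, was at 841 against at most 2.23 CPM. TTR, the thyroid hormone carrier of the choroid plexus, was at 23630 against at most 72.8 CPM. Pineal and choroid plexus genes are therefore given with and without this library below, and their part in other results was not tested.

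**Figure D1:**
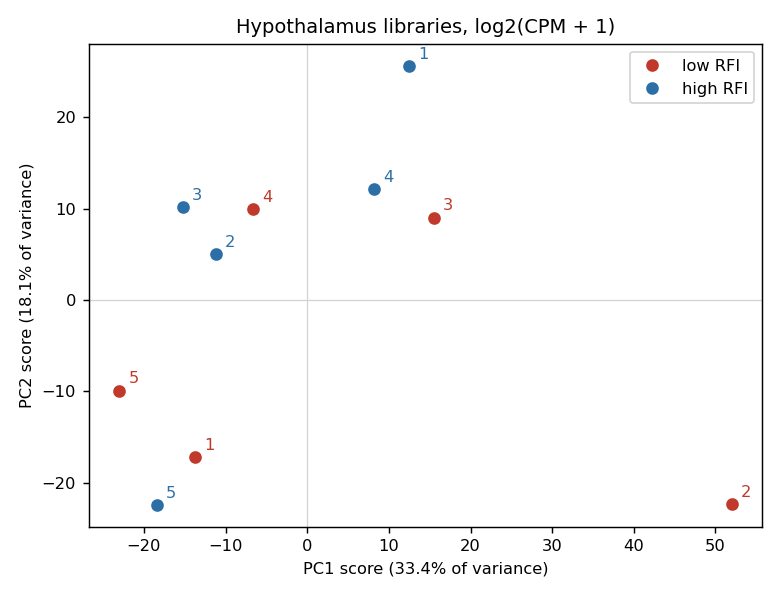
Scores of the 5 low RFI libraries (red) and 5 high RFI libraries (blue) on the first and second principal components of log2(CPM + 1), with library numbers. Low RFI library 2 lies at 52 on PC1, and the libraries of both groups are intermixed on PC2.

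Markers of the labelled tissue were present as a list, but not each of them was clearly present in every library. The 19 hypothalamic regional factors found in the count table summed to 164.8 to 227.6 CPM in low RFI and 160.4 to 234.7 CPM in high RFI. In low RFI library 2, BSX alone gave 33.2 of 187.3 CPM, and no other library had more than 1.81 CPM of it. The sum is therefore no measure of how much hypothalamus each library held. NKX2-1, OTP and RAX were chosen among them after their values were seen. These were at low levels, and SIX3, given below, was higher. NKX2-1, a regulator of hypothalamic identity, was at 0.239 to 3.54 CPM in low RFI and 0.702 to 4.76 CPM in high RFI. OTP, needed for several peptide neurons, was at 0.318 to 8.21 CPM in low RFI and 1.117 to 9.97 CPM in the high RFI ones, and RAX, made by tanycytes, at 3.78 to 5.32 CPM in low RFI and 3.73 to 6.66 CPM in high RFI. Midbrain and hindbrain markers were also present and uneven. EN1, a midbrain-hindbrain boundary factor, was at 0.955, 3.32, 12.7, 20.2 and 2.52 CPM in low RFI libraries 1 to 5, against 5.79, 2.70, 3.19, 12.3 and 0.243 CPM in high RFI libraries 1 to 5. Libraries 3 and 4 of low RFI and library 4 of high RFI thus had the most EN1, and EN2 followed the same order of high libraries (21.4 and 23.2 CPM in low RFI 3 and 4, and 20.5 CPM in high RFI 4).

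No gene passed edgeR's quasi-likelihood test at a Benjamini-Hochberg adjusted p of 0.05 (0% of 15179 tested), and the smallest adjusted p was 0.941. An unadjusted p under 0.05 was reached by 728 genes, 4.8% of those tested, of which 306 (2.02%) were higher and 422 (2.78%) lower in low RFI. For 140 genes (0.922%) the groups did not overlap at all, 46 (0.303%) with every low RFI library above every high RFI library and 94 (0.619%) with every one below. The libraries were precise enough to bound most genes: the 95% interval of the fold lay within 2-fold in either direction for 13001 genes (85.7%) and within 1.5-fold for 9296 (61.2%). DESeq2, run on the same counts, called 5 genes (0.0329%), and limma-voom called none and had 684 genes at an unadjusted p under 0.05.

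CHAT, SLC5A7 and SLC18A3, genes that define acetylcholine neurons, were higher in low RFI. CHAT, which makes acetylcholine, had 5.17, 3.58, 4.79, 6.26 and 12.2 CPM in low RFI libraries 1 to 5, against 1.49, 2.22, 2.63, 2.47 and 1.95 CPM in high RFI libraries 1 to 5. The groups did not overlap, and low RFI library 5 was far above the rest of its own group. The log2 fold, low minus high RFI, was 1.57 ± 0.32 (SE), with a 95% interval of 0.87 to 2.27. Its unadjusted p was 0.000368 and its adjusted p 0.964 in edgeR, while DESeq2 gave an adjusted p of 0.0201.

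SLC5A7, the choline transporter that feeds CHAT, had 10.8, 5.59, 7.92, 13.2 and 25.1 CPM in low RFI, against 2.37, 3.57, 6.06, 4.63 and 4.30 CPM in high RFI. The groups overlapped only between low RFI library 2 and high RFI library 3. The log2 fold was 1.58 ± 0.38, with an unadjusted p of 0.00122. SLC18A3, which loads acetylcholine into vesicles, had 9.95, 6.81, 14.6, 15.9 and 18.3 CPM in low RFI, against 6.23, 6.03, 5.35, 9.66 and 4.62 CPM in high RFI. Its groups overlapped through high RFI library 4, and the log2 fold was 1.04 ± 0.27. SLC18A3 (chromosome 6, 3686230 to 3687798) and CHAT (chromosome 6, 3650070 to 3681305, both on the minus strand, GRCg6a) are neighbours whose listed spans do not overlap. SLC10A4, a vesicle protein of cholinergic and monoamine neurons in rodents, had 4.38, 9.78, 17.9, 24.7 and 7.09 CPM in low RFI, against 4.65, 3.65, 1.68, 5.75 and 2.43 CPM in high RFI. Only low RFI library 1 lay within the high RFI range, and the log2 fold was 1.81 ± 0.47 (unadjusted p = 0.00217). SLC10A4 was highest in low RFI libraries 3 and 4, whereas CHAT, SLC5A7 and SLC18A3 were highest in low RFI library 5.

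The other tested genes of the acetylcholine list had smaller log2 folds. Of all 9 intervals of that list, only 4 (44.4%) lay within 2-fold, so several of these genes are loosely bounded. Of 9 tested genes of acetylcholine synthesis, transport and breakdown, 6 (66.7%) were higher in low RFI, against 51.8% of all tested genes. CHAT, SLC5A7 and SLC18A3 were the 3 (33.3%) with an unadjusted p under 0.05, against 4.8%. These 3 are expressed by the same neurons, so they are not separate observations. The list was chosen with earlier results of these data known, so that share is no further support for them. The median log2 fold of the 9 genes was 0.08, against 0.01 for all tested genes. ACHE, the main enzyme of acetylcholine breakdown, averaged 244.4 ± 112 CPM in low RFI and 294.5 ± 108 CPM in high RFI (SD, n = 5 each), with an interval of -1.01 to 0.47. BCHE, a related esterase, gave a log2 fold of 0.02 ± 0.14 and the choline carrier SLC44A1 one of -0.03 ± 0.18. CHKA, which phosphorylates choline for membrane lipids, gave 0.08 ± 0.10, COLQ, the collagen tail of ACHE, gave 0.43 ± 0.32, and PRIMA1, its brain membrane anchor, gave -0.04 ± 0.30.

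Transcription factors of cholinergic neurons were mixed. Of 6 tested factors and receptors on the list, 2 were higher in low RFI and none had an unadjusted p under 0.05. LHX8, a factor of forebrain cholinergic neurons, was at 0.698 to 2.79 CPM in low RFI and at 0.439, 20.9, 0.319, 1.596 and 3.57 CPM in high RFI. High RFI library 2 alone held most of it, and the log2 fold was -2.17 with an interval of -4.38 to 0.04. ISL1, a factor of motor and arcuate neurons, was at 25.8 CPM in low RFI library 2 and at 1.03 to 4.65 CPM in the other low RFI libraries, against 1.197 to 5.92 CPM in high RFI. Its log2 fold was 1.19 with all libraries and -0.14 without low RFI library 2.

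The differences of CHAT, SLC5A7, SLC18A3 and SLC10A4 were as large without low RFI library 2. Without it the edgeR log2 folds were 1.71 for CHAT, 1.76 for SLC5A7, 1.202 for SLC18A3 and 1.90 for SLC10A4. DESeq2 then gave adjusted p-values of 0.000904 for CHAT and SLC5A7 and 0.00342 for SLC18A3, while edgeR called no gene. With all libraries DESeq2 gave 0.0634 for SLC5A7, 0.205 for SLC18A3 and 0.0957 for SLC10A4, which it did not call. The highest adjusted p over the DESeq2 fits that each left out 1 library was 0.107 for CHAT, 0.38 for SLC5A7, 0.664 for SLC18A3 and 0.388 for SLC10A4. Low RFI library 5 weighed most the other way for CHAT, SLC5A7 and SLC18A3. Leaving it out lowered the edgeR log2 folds to 1.197 for CHAT, 1.17 for SLC5A7 and 0.89 for SLC18A3. For SLC10A4 the lowest fold, 1.43, came without low RFI library 4. Over the 10 DESeq2 fits that each left out 1 library, CHAT was called in 5, SLC10A4 in 4, SLC5A7 in 2 and SLC18A3 in 2. CHAT was not called without low RFI library 4 or without any of high RFI libraries 2 to 5.

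**Figure D2:**
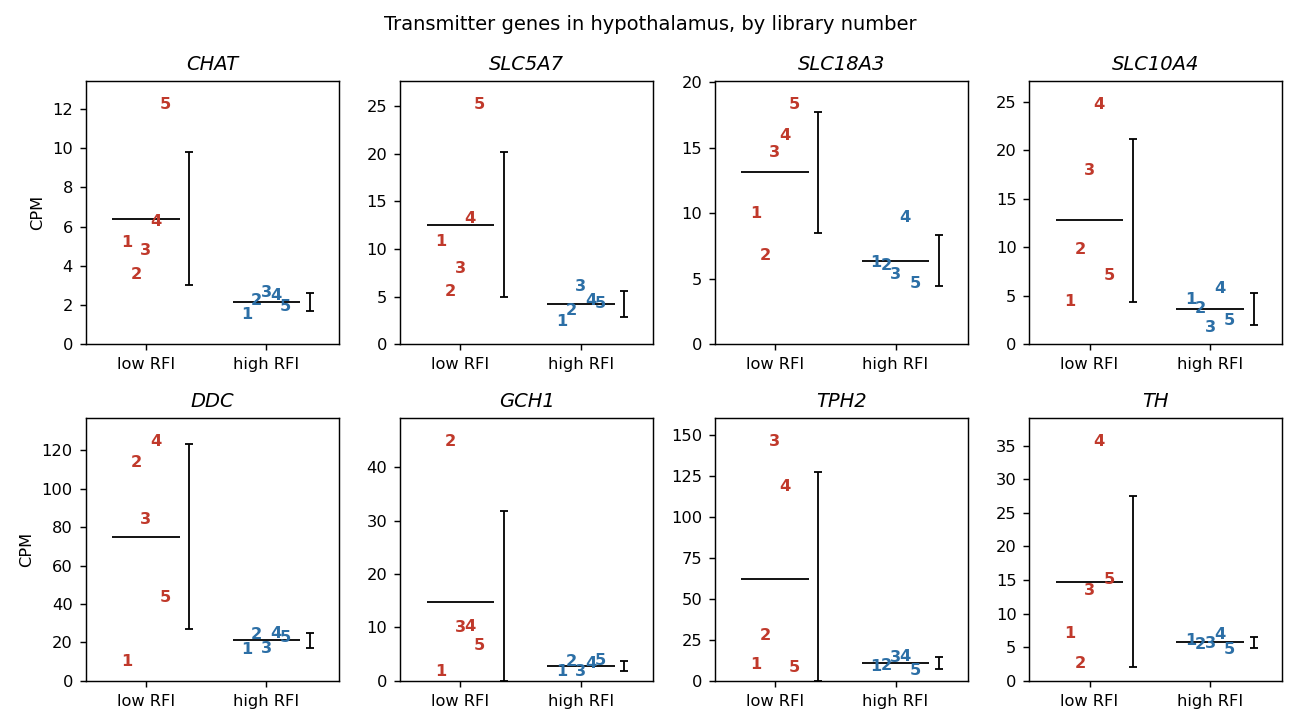
CPM of 8 genes of acetylcholine and monoamine neurons in each library, low RFI left and high RFI right, with digits giving the library number. Lines mark group means and bars the SD (n = 5 each), cut off at 0 for GCH1 and TPH2. The CHAT groups do not overlap, and the high DDC and TPH2 values of low RFI come from part of its libraries.

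Genes of monoamine neurons were also higher in low RFI, but not in all its libraries. Of 22 tested members of monoamine synthesis, transport and breakdown, 18 were higher and 11 had an unadjusted p under 0.05, all of them higher, against 2.02% of all tested genes. The median log2 fold was 0.52, and 0.55 without low RFI library 2, where 14 of 22 were higher and 10 had an unadjusted p under 0.05. The list also holds TPH1, ASMT and AANAT, which are on the pineal list too. TPH1 gave the highest log2 fold of the list, 7.14, and -1.47 without low RFI library 2. Several genes of the list are expressed by the same neurons, so they are not all separate observations. DDC, which makes dopamine and serotonin from their precursors, had 10.1, 113, 84.0, 124 and 43.6 CPM in low RFI libraries 1 to 5, against 16.6, 24.2, 16.8, 24.9 and 22.6 CPM in high RFI. In low RFI 4 libraries were above every high RFI library and library 1 was below all of them. The log2 fold was 1.83 ± 0.52, with an unadjusted p of 0.00468 and an adjusted p of 0.964 in edgeR.

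GCH1, which starts the synthesis of the cofactor of monoamine hydroxylases, had 1.83, 44.8, 9.92, 10.2 and 6.69 CPM in low RFI, against 1.84, 3.57, 1.76, 3.19 and 3.81 CPM in high RFI. Low RFI library 1 was within the high RFI range, and the log2 fold was 2.36 ± 0.69, or 1.34 without low RFI library 2. TPH2, which starts serotonin synthesis in brain neurons, had 9.95, 27.9, 146, 118.5 and 8.19 CPM in low RFI, against 9.03, 9.67, 14.4, 14.8 and 6.16 CPM in high RFI. Its difference came from low RFI libraries 3 and 4 and, less, from library 2, and the interval of its log2 fold was 0.77 to 4.26.

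SLC6A4, the serotonin transporter, showed the same libraries: 1.35, 5.59, 35.5, 63.2 and 1.496 CPM in low RFI, against 1.32, 2.22, 5.03, 5.03 and 1.14 CPM in high RFI. FEV, the factor that defines serotonin neurons, was in low RFI at 12.9 and 10.9 CPM in libraries 3 and 4 and at 0.398 to 1.22 CPM in the rest, against 0.324 to 1.92 CPM in high RFI. These serotonin genes were thus highest in the 2 low RFI libraries that were also highest for EN1. High RFI library 4, with 12.3 CPM of EN1, had 14.8 CPM of TPH2 and 1.197 CPM of FEV. Of 11 tested midbrain and hindbrain markers, 6 were higher in low RFI. TPH2, SLC6A4 and FEV were the 3 (27.3%) with an unadjusted p under 0.05, against 4.8% of all tested genes. The summed level of that list, TPH2, SLC6A4 and FEV included, ran from 35.9 to 270.3 CPM in low RFI and from 34.1 to 104 CPM in high RFI. The sum is therefore not separate from these serotonin genes. Whether the spread of midbrain and hindbrain tissue markers has a part in the monoamine difference was not tested.

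TH, which starts dopamine and noradrenaline synthesis, had 7.08, 2.53, 13.4, 35.6 and 15.1 CPM in low RFI, against 5.96, 5.39, 5.59, 6.94 and 4.70 CPM in high RFI. All low RFI libraries but the second were above every high RFI library. The log2 fold was 1.37 ± 0.52 with all libraries, 1.64 without low RFI library 2 and 0.74 without low RFI library 4. DESeq2 gave an adjusted p of 0.576 with all libraries and called TH in 1 of 10 fits that each left out 1 library, where it ran from 0.0177, without low RFI library 2, to 1. The vesicle transporter SLC18A2 gave a log2 fold of 1.51 ± 0.64, the noradrenaline transporter SLC6A2 0.91 ± 0.36, and MAOB, a monoamine-degrading enzyme, 0.45 ± 0.20, each with an unadjusted p under 0.05. MAOA, the related enzyme, averaged 127.5 ± 22.4 CPM in low RFI and 151 ± 16.7 CPM in high RFI, a log2 fold of -0.24 ± 0.12 (unadjusted p = 0.0724).

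The appetite peptides varied widely between pools of the same group. Of 19 tested feeding neuropeptides, 16 (84.2%) were higher in low RFI, against 51.8% of all tested genes. An unadjusted p under 0.05 was reached by 1 (5.26%), near the share of all tested genes, 4.8%. The median log2 fold of the 19 was 0.26, or 0.18 without low RFI library 2. The median spread between libraries of a group was 0.60 on the log2 scale, against 0.23 for all tested genes, and the 95% interval lay within 2-fold for 7 of 19 peptides (36.8%) against 85.7% of all tested genes. For the other 12, these pools leave room for a 2-fold difference in at least 1 direction.

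Among peptides that promote feeding, NPY had 150.5, 76.0, 54.0, 55.5 and 47.8 CPM in low RFI and 119, 62.8, 102, 60.7 and 76.7 CPM in high RFI. The groups overlapped almost wholly, and the log2 fold was -0.13 ± 0.31, with an interval of -0.82 to 0.56. AGRP, its partner peptide, was too low to test, at 0.0812 to 1.74 CPM in low RFI and 0 to 0.730 CPM in high RFI. HCRT, the orexin precursor, ran from 0.239 to 35.4 CPM in low RFI and from 0.958 to 10.1 CPM in high RFI, and its log2 fold of 1.28 had an interval of -0.66 to 3.21. PMCH, the precursor of melanin-concentrating hormone, was at 0 to 2.60 CPM in low RFI and 0.559 to 2.19 CPM in high RFI. GAL, galanin, ran from 3.18 to 31.1 CPM in low RFI and from 2.23 to 41.9 CPM in high RFI, with an interval of -1.92 to 1.71.

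Among peptides that reduce feeding, POMC had 13.3, 2.10, 15.6, 3.49 and 4.57 CPM in low RFI and 0.789, 3.73, 14.9, 1.52 and 6.40 CPM in high RFI. The ranges overlapped, and the log2 fold was 0.51 ± 0.74. POMC is also the main product of pituitary corticotrophs, and CGA, the subunit shared by pituitary glycoprotein hormones, was at 1.79 to 10.8 CPM in low RFI and 0.526 to 5.35 CPM in high RFI. CARTPT, which makes CART, had 2.07, 13.1, 9.66, 11.7 and 9.45 CPM in low RFI and 2.63, 2.62, 2.71, 7.98 and 10.6 CPM in high RFI. All low RFI libraries but the first were high, high RFI library 5 reached their levels, and the log2 fold was 0.79 ± 0.51 (unadjusted p = 0.148).

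CCK, a satiety peptide made by many brain neurons, ran from 87.5 to 348 CPM in low RFI and from 71.3 to 296 CPM in high RFI, with a log2 fold of 0.46 ± 0.47. GRP, a bombesin-like peptide, ran from 20.6 to 192 CPM in low RFI and from 9.48 to 55.4 CPM in high RFI, and it was highest in low RFI libraries 3 and 4, which also had the most EN1. NPVF, the precursor of gonadotropin-inhibitory hormone, which raises feeding in chicks, ran from 3.50 to 81.7 CPM in low RFI and from 6.14 to 51.8 CPM in high RFI. BDNF, a growth factor that reduces feeding in rodents, was the member with an unadjusted p under 0.05. It had 4.22, 11.1, 4.70, 2.52 and 4.73 CPM in low RFI and 3.68, 2.78, 2.00, 4.31 and 2.84 CPM in high RFI. Low RFI library 2 was far above the others, and edgeR gave a log2 fold of 0.80 ± 0.36 with it and 0.37 without it, where the unadjusted p was no longer under 0.05.

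Of the remaining peptides, the better measured ones, from PENK to TAC1, differed little. PENK, the enkephalin precursor, gave a log2 fold of 0.10 with an interval of -0.20 to 0.40, ADCYAP1, which encodes PACAP, 0.21 with -0.18 to 0.61, PNOC, the nociceptin precursor, 0.13 with -0.26 to 0.53, and NTS, neurotensin, 0.26 with -0.16 to 0.68. TAC1, the substance P precursor, gave 0.09 with an interval of -0.43 to 0.60. VIP, a peptide that drives prolactin release in birds, gave 0.30 with a wider interval of -0.60 to 1.2. NMU, neuromedin U, UCN3, a urocortin, and PYY were at or below 5.03 CPM in all libraries. Their intervals ran from -0.47 to 3.02, -1.36 to 0.89 and -0.64 to 0.91. With 1 library left out, the log2 fold of NMU ran from 0.892 to 1.682.

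**Figure D3:**
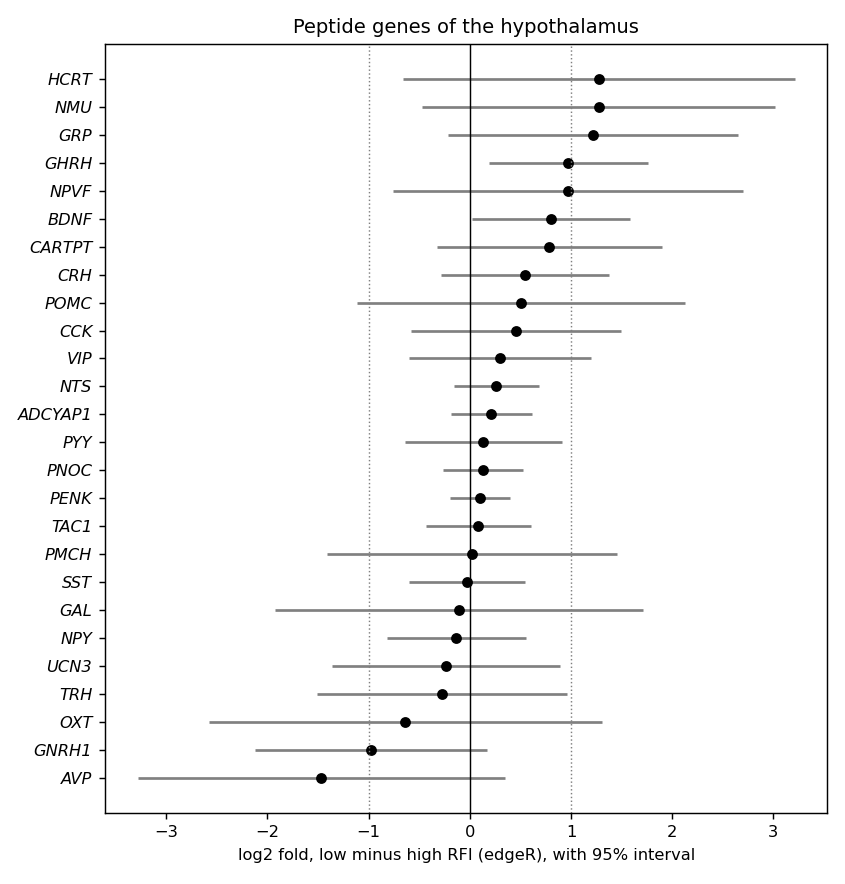
Log2 fold, low minus high RFI, of the 26 tested feeding, releasing and posterior pituitary peptide genes, with 95% intervals from edgeR. Dotted lines mark 2-fold. Most intervals cross 0 and run past a dotted line, and those of GHRH and BDNF lie above 0.

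Of the 10 genes of the releasing and posterior pituitary list, 5 were higher in low RFI. GHRH and TH had an unadjusted p under 0.05 (20%, against 4.8% of all tested genes). GHRH, which drives growth hormone release, had 16.6, 20.3, 14.1, 6.74 and 14.4 CPM in low RFI, against 12.9, 5.63, 4.55, 3.59 and 10.1 CPM in high RFI. In low RFI 4 libraries were above every high RFI library and library 4 lay within their range. The log2 fold was 0.97 ± 0.36 (unadjusted p = 0.0194, adjusted p = 0.964 in edgeR) and 0.82 without low RFI library 2. SST, somatostatin, which opposes GHRH, averaged 85.2 ± 32.1 CPM in low RFI and 87.0 ± 27.4 CPM in high RFI, and its receptor SSTR2 3.79 ± 1.79 and 3.79 ± 1.94 CPM in low and high RFI.

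AVP, the vasotocin gene, had 129, 181, 440.3, 199 and 25.04 CPM in low RFI, against 169, 963, 77.9, 361 and 1123 CPM in high RFI. It varied more than 10-fold within each group, and the log2 fold of -1.47 had an interval of -3.28 to 0.34. OXT, the mesotocin gene, had 13.9, 67.9, 129, 46.9 and 10.8 CPM in low RFI, against 41.2, 98.6, 9.02, 31.4 and 237.6 CPM in high RFI. Both peptides are made by the same magnocellular nuclei, and library 5 was the lowest of low RFI and the highest of high RFI for both. Per length, AVP was the most abundant peptide gene in both groups, at a mean of 332 FPKM in low RFI and 906 FPKM in high RFI, against 125 and 137 FPKM for NPY, and the AVP groups overlapped.

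CRH, which drives the stress axis and reduces feeding, had 32.5, 40.5, 15.8, 14.95 and 21.7 CPM in low RFI and 31.8, 9.36, 10.5, 11.97 and 22.2 CPM in high RFI. The groups overlapped, and its log2 fold was 0.55 ± 0.38. Its binding protein CRHBP gave 0.07 ± 0.37. TRH, which drives thyrotropin, was at 2.05 to 7.22 CPM in low RFI and at 2.28 to 14.5 CPM in high RFI, where library 5 alone exceeded 3.01 CPM. GNRH1, the reproductive releasing hormone, was at 0.0788 to 1.35 CPM in low RFI and 0.638 to 2.35 CPM in high RFI, with a log2 fold of -0.97 ± 0.53.

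Receptors of feeding signals were measured more tightly than their ligands, with 25 of 29 intervals within 2-fold. Of the 29, 21 (72.4%) were higher in low RFI and 3 (10.3%) had an unadjusted p under 0.05, all of them higher, against 51.8% and 4.8% of all tested genes. GFRAL, the hindbrain receptor of GDF15 in mammals, had 4.85, 6.90, 4.96, 5.12 and 10.1 CPM in low RFI, against 3.07, 4.36, 4.39, 3.27 and 3.81 CPM in high RFI. The groups did not overlap, and the log2 fold was 0.75 ± 0.24 (unadjusted p = 0.00751) and 0.72 without low RFI library 2. MRAP2, an accessory protein of melanocortin receptors, gave a log2 fold of 0.59 ± 0.22, and HTR1B, a serotonin receptor, 0.31 ± 0.14. NPY5R, an NPY receptor that promotes feeding, averaged 17.0 ± 3.15 CPM in low RFI and 13.5 ± 2.13 CPM in high RFI (unadjusted p = 0.0567). MC4R, the melanocortin receptor through which POMC peptides act, gave 0.10 ± 0.39, and LEPR, the leptin receptor, -0.11 ± 0.16.

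Genes of the dense-core vesicles that store peptides and amines were slightly higher in low RFI. Of 18 tested granins and prohormone-processing genes, 17 (94.4%) were higher and 4 (22.2%) had an unadjusted p under 0.05, against 51.8% and 4.8% of all tested genes, and all 18 intervals lay within 2-fold. The median log2 fold was 0.19 both with and without low RFI library 2. CHGB, a granin that packs these vesicles, had 652, 699, 616, 674 and 578 CPM in low RFI, against 595, 374, 377, 418 and 434 CPM in high RFI. High RFI library 1 alone reached the low RFI range. The log2 fold was 0.55 ± 0.12, with an unadjusted p of 0.000754 and an adjusted p of 0.964 in edgeR. Without high RFI library 1 it was 0.69. DESeq2 did not call CHGB with all libraries (adjusted p = 0.0829) and called it in 1 of 10 fits that each left out 1 library, where the adjusted p ran from 8.16e-12, without high RFI library 1, to 0.454.

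SCG2, a related granin, averaged 1058 ± 136 CPM in low RFI and 860.3 ± 149 CPM in high RFI, a log2 fold of 0.30 ± 0.13. PCSK2, which cleaves prohormones, gave 0.32 ± 0.14 and SYT4, a calcium sensor of these vesicles, 0.38 ± 0.16. SYT4 also had an unadjusted p under 0.05 in edgeR without low RFI library 2, as did CHGB.

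The remaining genes of smallest p that were higher in low RFI included cell surface and signalling genes. Both cadherins among them, which join neurons by matched adhesion, had groups that did not overlap. CDH9 was at 9.06 to 13.01 CPM in low RFI and 5.59 to 8.60 CPM in high RFI (log2 fold 0.61 ± 0.16), and CDH11 at 92.2 to 109 and 77.1 to 91.3 CPM in low and high RFI (0.30 ± 0.08). CDH8 also did not overlap, at 61.1 to 69.7 CPM in low RFI and 52.4 to 60.9 CPM in high RFI, while 13 of 25 tested cadherins and protocadherins were lower and the median log2 fold was 0.00. RET, a growth factor receptor kinase and the partner of GFRAL in mammals, was at 33.1 to 65.8 CPM in low RFI and 21.2 to 31.8 CPM in high RFI (0.65 ± 0.19). SEMA3A, an axon guidance signal, gave 0.64 ± 0.18, and PGM2, an enzyme of sugar phosphate metabolism, 0.37 ± 0.10. AHI1, a cilium protein, gave 0.52 ± 0.15, FSIP1, a sperm sheath protein gene, 0.70 ± 0.19, RASGEF1B, an activator of Ras-type switches, 0.50 ± 0.14, and BVES, a membrane protein that binds cyclic AMP, 0.60 ± 0.18. For 8 of the 15 genes of smallest p in this direction the groups did not overlap, against 0.303% of all tested genes. Choosing by p in these libraries favours such genes.

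The genes of smallest p that were lower in low RFI had smaller folds and tighter groups. For 12 of 14 the groups did not overlap, against 0.619% of all tested genes. Choosing genes by p in these libraries favours separated groups, so that count is no further support for them. Apart from EPX and CD1B their log2 folds were -0.28 to -0.54. EPX, a peroxidase of granulocytes, had 0.637, 0.698, 0.870, 1.14 and 0.709 CPM in low RFI, against 2.28, 4.12, 1.84, 2.79 and 1.22 CPM in high RFI. The groups did not overlap, and the log2 fold was -1.59 ± 0.35. Of the 7 tested granulocyte markers, 5 were lower, EPX included, against 7319 of all 15179 tested genes. Only EPX among them had an unadjusted p under 0.05. CD1B, which presents lipids to T cells, averaged 6.23 ± 1.02 CPM in low RFI and 9.72 ± 1.11 CPM in high RFI (log2 fold -0.64 ± 0.16), and its reads may be shared with the other chicken CD1 gene.

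AKT2, a kinase that carries the insulin signal, had 34.6, 30.6, 37.8, 34.4 and 32.2 CPM in low RFI, against 38.9, 43.5, 41.2, 42.1 and 40.4 CPM in high RFI. Every low RFI library was below every high RFI library, and the log2 fold was -0.28 ± 0.08 (unadjusted p = 0.0048). FOXO1, a transcription factor that AKT kinases inactivate, had 18.8, 17.4, 21.1, 18.9 and 14.4 CPM in low RFI, against 23.9, 24.4, 22.5, 22.4 and 21.2 CPM in high RFI. These groups did not overlap either, with a log2 fold of -0.34 ± 0.11 (unadjusted p = 0.0096). They were the 2 of 34 tested insulin, mTOR and AMPK genes with an unadjusted p under 0.05, a share of 5.88% against 4.8% of all tested genes. All 34 intervals lay within 2-fold, and the median log2 fold was 0.01. INSR, the insulin receptor, averaged 34.5 ± 10.6 CPM in low RFI and 35.2 ± 6.88 CPM in high RFI.

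Other genes of this group were PYGO2, a coactivator of Wnt signalling, at 9.77 to 11.1 CPM in low RFI and 13.1 to 15.2 CPM in high RFI (log2 fold -0.41 ± 0.11), and AKAP8, a nuclear anchor of protein kinase A, at 40.3 to 46.7 and 49.4 to 60.3 CPM in low and high RFI. CCDC130, a probable splicing factor, was at 17.6 to 24.3 CPM in low RFI and 26.1 to 38.9 CPM in high RFI. MRI1, a methionine salvage enzyme, overlaps CCDC130 on chromosome 30 and the same strand, so their reads may be shared, and its log2 fold was -0.29 ± 0.09. CD38, which consumes NAD, averaged 78.0 ± 8.54 CPM in low RFI and 101.3 ± 14.6 CPM in high RFI, and EFHD1, a mitochondrial calcium-binding protein, 225.1 ± 32.2 and 284.3 ± 14.5 CPM in low and high RFI. STX8 is a fusion protein of endosomes, CHTF18 loads the replication clamp and MINDY1 removes ubiquitin, and their log2 folds were -0.31, -0.35 and -0.32. KLHDC7A and ZNF385C gave -0.39 and -0.41.

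Of the 14 lower genes of smallest p, 7 lay on chromosomes 16, 25 and 30 to 33, against 5.49% of all tested genes. This set was chosen with these positions known, so the 7 are no test of it, and CCDC130 and MRI1 among them may share reads. The 834 tested genes on these small chromosomes had a median log2 fold of -0.14. Their groups were lower without overlap for 27, some of them among the 14, and higher without overlap for 0. Over all tested genes, these 834 included, the counts were 94 (0.619%) and 46 (0.303%). The 122 unplaced genes had a median of -0.32, with 4 lower and 0 higher without overlap. The median was 0.03 on chromosomes 1 to 5 and Z (16 lower and 27 higher) and 0.00 on the other chromosomes (47 lower and 19 higher). Base composition and length of these genes were not tested.

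**Figure D4:**
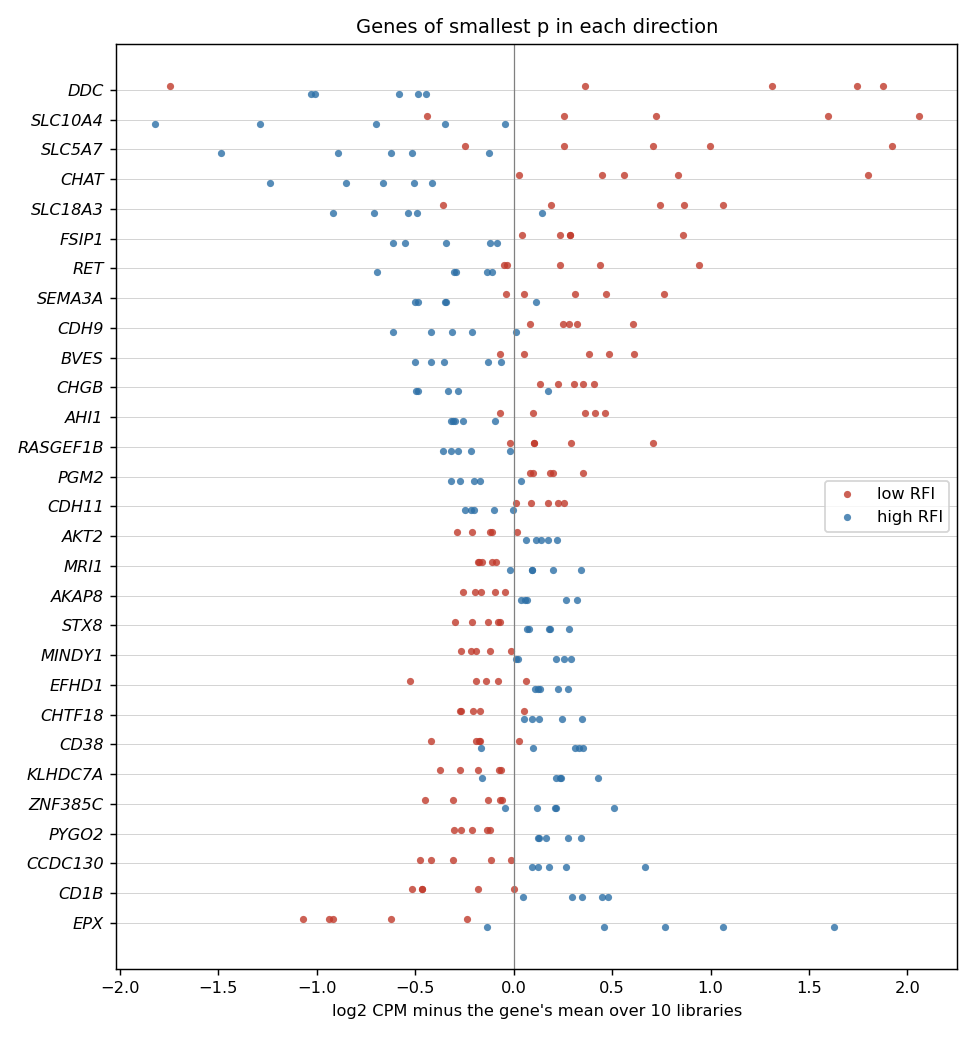
Log2 CPM of each library minus the gene's mean over the 10 libraries, for the 15 higher and 14 lower genes of smallest p, low RFI (red) above high RFI (blue) in each row. Genes at the top spread widely within low RFI, and most of the lower genes form narrow groups, with EPX the widest.

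The other DESeq2 calls that can be given were also lower in low RFI and have no symbol in the table. ENSGALG00000052652 on chromosome 26 had 16.8, 15.2, 13.3, 14.0 and 15.5 CPM in low RFI, against 21.9, 22.8, 22.0, 21.6 and 18.6 CPM in high RFI, and its groups did not overlap. DESeq2 gave an adjusted p of 0.0201 and edgeR a log2 fold of -0.52 ± 0.10. An unnamed gene model on chromosome 14 (101212 to 101912, GRCg6a) had 13.5 to 29.5 CPM in low RFI and 30.2 to 91.0 CPM in high RFI, with a DESeq2 adjusted p of 0.0193. Another on chromosome 25 (612953 to 617969) had 5.04 to 8.04 CPM in low RFI and 10.3 to 17.7 CPM in high RFI, with a DESeq2 adjusted p of 0.0282. Neither model overlapped between groups.

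Markers of neuron classes did not all lie on 1 side. All 10 tested GABA neuron markers were lower in low RFI, 2 of them (20%) with an unadjusted p under 0.05, against 4.8% of all tested genes. Their median log2 fold was -0.27, or -0.29 without low RFI library 2. DLX5, a factor of developing forebrain GABA neurons, had 1.99, 4.10, 3.66, 3.74 and 2.52 CPM in low RFI, against 4.39, 6.98, 4.87, 2.87 and 6.73 CPM in high RFI. Only high RFI library 4 lay within the low RFI range, and the log2 fold was -0.69 ± 0.28. The enzymes that make GABA differed less, with log2 folds of -0.24 for GAD1 and -0.18 for GAD2, and these were -0.01 for both without low RFI library 2. Of 7 tested glutamate neuron markers, 5 were higher in low RFI and none had an unadjusted p under 0.05. SLC17A6, the vesicular glutamate transporter of subcortical neurons, averaged 248 ± 63.7 CPM in low RFI and 192 ± 36.7 CPM in high RFI. Of 17 pan-neuronal genes, 14 were higher, none with an unadjusted p under 0.05, and GAP43, a growth cone protein, gave 0.26 ± 0.12.

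Of 16 tested hypothalamic regional factors, 11 were lower in low RFI, 3 of them with an unadjusted p under 0.05 (18.8% of the 16, against 4.8% of all tested genes). VAX1, a factor of the preoptic and optic region, had 1.11, 1.31, 1.65, 2.36 and 1.42 CPM in low RFI, against 2.28, 4.36, 2.23, 1.52 and 9.97 CPM in high RFI. SIX6 had 0.0788 to 2.03 CPM in low RFI and 1.28 to 6.32 CPM in high RFI, and SIX3, its relative in early forebrain patterning, 13.3 to 23.2 and 22.1 to 30.9 CPM in low and high RFI. TBR1, a cortical factor, was at 0.236 to 1.91 CPM in low RFI and 0.319 to 7.53 CPM in high RFI. High RFI libraries 2 and 5 were the highest for VAX1 and TBR1. How the tissue was cut at its borders with the telencephalon, midbrain and pineal region could not be read from the labels, and its part in the transmitter and peptide results was not tested.

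Markers of oligodendrocytes were mostly lower in low RFI, and the lists of other glia went different ways. Of 15 tested markers of myelinating oligodendrocytes, 14 were lower and 4 (26.7%) had an unadjusted p under 0.05, against 4.8% of all tested genes, with a median log2 fold of -0.33. Without low RFI library 2, the median was -0.18 and none had an unadjusted p under 0.05. CNP, a myelin enzyme, had 3786, 1975, 3307, 3993 and 3213 CPM in low RFI, against 3756, 5226, 4462, 3611 and 4220 CPM in high RFI. Low RFI library 2 was the lowest of all. SOX10, the main oligodendrocyte factor, gave -0.33 ± 0.13, NKX6-2 -0.33 ± 0.13 and OLIG2, of the precursor list, -0.33 ± 0.13. The summed myelin markers ran from 24990 to 47970 CPM in low RFI and from 38960 to 62200 CPM in high RFI.

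Of 12 tested astrocyte markers, 7 were lower in low RFI, with a median log2 fold of -0.07. An unadjusted p under 0.05 was reached by 3 (25%), against 4.8% of all tested genes, and by 3 without low RFI library 2. GFAP, the astrocyte filament protein, had 1713, 1404, 2094, 2238 and 2087 CPM in low RFI, against 2091, 3325, 2277, 2720 and 2787 CPM in high RFI. Only high RFI library 1 lay within the low RFI range, and the log2 fold was -0.47 ± 0.15 (unadjusted p = 0.00903). GLUL, which turns glutamate into glutamine, gave -0.33 ± 0.12 and SOX9, an astrocyte factor, -0.30 ± 0.14. AQP4, the water channel of astrocyte endfeet, gave 0.00 ± 0.13. Of 12 tested tanycyte and ependyma genes, 10 were higher with a median of 0.24, and without low RFI library 2 the count was 6 and the median -0.02. Of 13 tested microglia and macrophage genes, 11 were lower and 2 (15.4%) higher, against 51.8% higher of all tested genes. None had an unadjusted p under 0.05, and the median log2 fold was -0.12. Without low RFI library 2 the median was -0.20, 0 of 13 were higher and 1 had an unadjusted p under 0.05. C1QB, a complement subunit, gave -0.31 ± 0.14 and CSF1R, the receptor microglia depend on, -0.25 ± 0.13 with all libraries.

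Genes induced by interferon were higher in part of the low RFI libraries. Of 28 tested, 24 (85.7%) were higher and 4 (14.3%) had an unadjusted p under 0.05, against 51.8% and 4.8% of all tested genes, with a median log2 fold of 0.31. IFIT5, which binds viral RNA, had 94.3, 124, 29.2, 24.8 and 19.5 CPM in low RFI, against 38.9, 9.59, 14.5, 29.7 and 17.3 CPM in high RFI. MX1, an antiviral GTPase, had 15.04, 17.02, 5.40, 4.47 and 4.41 CPM in low RFI, against 5.26, 4.28, 3.75, 5.75 and 6.16 CPM in high RFI. For both, low RFI libraries 1 and 2 were high and the other 3 lay in the high RFI range. Without low RFI library 2 the median was 0.16, 19 of 28 were higher and none had an unadjusted p under 0.05.

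Genes of energy metabolism differed little. Of 56 tested nuclear subunits of oxidative phosphorylation, 27 were higher and 29 lower in low RFI, none had an unadjusted p under 0.05, and all 56 intervals lay within 2-fold. COX5B, the one of smallest p, averaged 104 ± 3.85 CPM in low RFI and 131 ± 46.1 CPM in high RFI, where library 1 had 209 CPM. Of 13 mitochondrially encoded subunits, 11 were higher with all libraries and 5 without low RFI library 2, which had the highest mitochondrial share (20.1%), and ND6 had an unadjusted p under 0.05. ND6 had 252.2, 353, 294, 244 and 216 CPM in low RFI, against 889.5, 229, 495, 389 and 357 CPM in high RFI. Most high RFI libraries were above the low RFI libraries, and the log2 fold was -0.80 ± 0.30. ND6 is the protein gene on the strand opposite to the other mitochondrial protein genes, and whether counting used strand is not given in the sources used here.

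The counts of the following lists stand beside 51.8% of all tested genes that were higher and 4.8% with an unadjusted p under 0.05. Of 8 tested thyroid hormone genes, 6 were higher and none had an unadjusted p under 0.05. DIO2, which activates thyroid hormone in tanycytes, averaged 249.9 ± 42.6 CPM in low RFI and 207 ± 40.7 CPM in high RFI. Of 13 genes of the growth hormone and IGF axis, 10 were higher, none with an unadjusted p under 0.05, and IGFBP2, an IGF carrier, gave 0.24 ± 0.11. Of 19 immediate early genes, which mark recent neuron activity, 12 were higher and none had an unadjusted p under 0.05, with DUSP1 at 0.24 ± 0.11. Of 22 heat shock and chaperone genes, 17 were higher and 2 had an unadjusted p under 0.05, namely BAG3 (0.22 ± 0.10) and HSPA5, the chaperone of the endoplasmic reticulum (0.24 ± 0.11). Of 15 Wnt coactivator genes, 8 were lower and 2 had an unadjusted p under 0.05, PYGO2 and CREBBP, a histone acetyltransferase (-0.27 ± 0.12).

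The pineal and choroid plexus lists changed most without low RFI library 2. The 7 tested pineal genes had a median log2 fold of 0.69 with it and -0.34 without it, and the 9 choroid plexus genes 0.54 and -0.10. Their summed levels in low RFI ran from 17.1 to 2257 CPM for pineal and from 862.5 to 24860 CPM for choroid plexus genes, against 19.5 to 52.6 and 912 to 1432 CPM in high RFI. TTR gave a log2 fold of 7.26 with that library and -0.27 without it, and TPH1 7.14 and -1.47. The granulocyte median was -0.16 with all libraries and -0.76 without low RFI library 2, and the erythrocyte median 0.02 and -0.25. Of 16 meningeal fibroblast markers, 15 (93.8%) were higher, against 51.8% of all tested genes, and none had an unadjusted p under 0.05. The meningeal median was 0.31, or 0.16 without low RFI library 2, where 11 of 16 were higher. COL1A2, a collagen, gave 0.55 ± 0.41. The summed meningeal markers were highest in high RFI library 5 (1350 CPM), against 1242 CPM in low RFI library 2. SPAG6, a gene of motile cilia from the tanycyte and ependyma list, had 9.86 CPM in low RFI library 2 and 2.61 to 4.55 CPM in the other low RFI libraries, against 2.23 to 4.22 CPM in high RFI. ACTA2, smooth muscle actin, had 47.7 CPM in low RFI library 2 and 16.9 to 29.3 CPM in the other low RFI libraries, against 14.2 to 24.7 CPM in high RFI.

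Lymphocyte, blood, vessel and remaining regional lists had medians on both sides of that of all tested genes, 0.01. Of 8 tested T and B lymphocyte genes, 4 were higher and 4 lower, with 1 of each at an unadjusted p under 0.05 (25%, against 4.8% of all tested genes). CD3D, part of the T cell receptor complex, had 1.42 to 2.18 CPM in low RFI and 0.399 to 1.197 CPM in high RFI without overlap, while CD1B was lower without overlap. The 7 tested erythrocyte genes had a median log2 fold of 0.02, the 9 thalamus and habenula genes one of 0.23, the 9 anterior pituitary genes 0.12, the 19 endothelium and pericyte genes -0.01, and the 8 telencephalon genes -0.29. Among the genes of these lists, from erythrocyte to telencephalon, ACTA2 was the only one with an unadjusted p under 0.05.

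**Figure D5:**
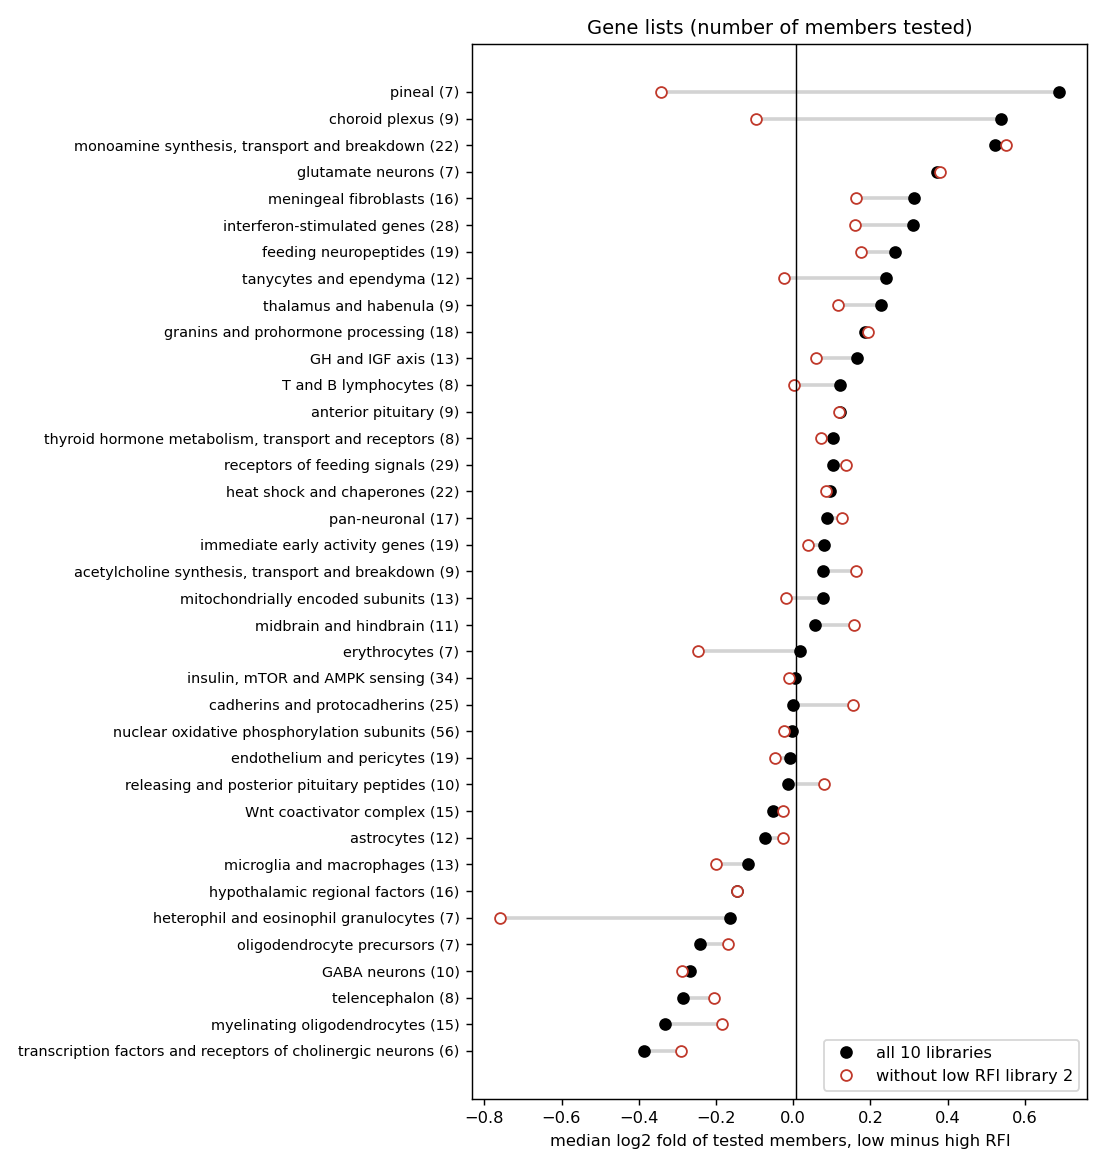
Median log2 fold, low minus high RFI, of the tested members of each gene list, with all 10 libraries (filled) and without low RFI library 2 (open). The vertical line is the median of all tested genes, 0.01. The monoamine and granin medians barely move without that library, and the pineal and choroid plexus medians turn below 0.

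Of the 728 genes with an unadjusted p under 0.05, 719 kept their direction without low RFI library 2 and 408 still had an unadjusted p under 0.05. All 29 genes of smallest p kept both. The 728 and the 29 were chosen by p in a fit that held the same remaining libraries. That choice favours keeping direction and p, so these counts are no further support for the genes. Without low RFI library 2 edgeR again called 0 genes, and 601 of 15343 tested (3.92%) had an unadjusted p under 0.05.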

How the data were processed

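The authors deposited raw read counts per gene and FPKM values per gene, with symbols, chromosomes and coordinates of the GRCg6a chicken genome. HISAT2 2.0.5 and DESeq2 1.20.0 are named, per the submitters' processing notes. The sources used here do not name the counting tool or say whether it used strand, which leaves overlapping and antisense genes uncertain. RNA was extracted with TRIzol, per the labels' protocols. FPKM were used only to set levels of different genes side by side.

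The 10 hypothalamus columns were mapped to libraries by title. In R 4.3.3, edgeR 4.0.16 fitted the counts with filterByExpr, TMM scaling and the robust quasi-likelihood test, two-sided, with Benjamini-Hochberg adjustment at 0.05. SE is the log2 fold divided by the square root of F. Library properties were compared by exact permutation. Over 20 pairs of libraries of 1 group, chi-square divided by its degrees of freedom was 8.41 to 79.4, so none was counted as a repeat. Alternatives were RLE scaling, no filter, DESeq2 1.42.0, limma-voom 3.58.1, a replicate block and each library left out. DESeq2 without each library was added after seeing the data. The fits were tested on simulated counts.

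Text names per direction the 15 symbol-bearing protein-coding genes of smallest p, all calls, up to 4 members of smallest p per list, all tested neuropeptide, releasing and acetylcholine genes, and the 3 genes most confined to 1 library. Other genes, among them list markers such as EN1, EN2, NKX2-1, OTP, RAX, GAD1, AQP4, MC4R, LEPR, INSR, AGRP, SLC6A2, SLC18A2, MAOA and MAOB, were chosen after their values were seen. Of 722 list genes, 575 were matched by symbol, 30 through gene IDs or accessions of a RefSeq table of another build, used for names alone, and 117 were not matched. The comparison and the lists were chosen with earlier results of these data known. List shares set beside those of all tested genes are therefore no test. Some results that the rule would give are not reported here.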

Additional observations from a re-analysis of the deposited data

Results flagged for a closer look

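Single libraries that stood far from the other 4 of their group were found in 33 of 248 group values checked (119 genes and the library properties in each group). The rule was Dixon's ratio at its 95% critical value for 5 samples (0.71). It flags about 1 in 20 groups of normally distributed values, and whether CPM are so distributed was not tested. TTR, TPH1 and ASMT were named because 1 library stood apart. Whether the 33 exceed what chance would give was therefore not tested. Low RFI library 2 was high for TTR (23630 CPM), ASMT (1070 CPM), TPH1 (840.7 CPM), BCHE (248.5 CPM), GCH1 (44.78 CPM), ISL1 (25.75 CPM), FSIP1 (12.31 CPM), BDNF (11.09 CPM) and SPAG6 (9.863 CPM). Low RFI library 1 was high for NPY (150.5 CPM), CRHBP (71.37 CPM) and CHTF18 (21.72 CPM). Low RFI library 3 was high for LHX8 (2.785 CPM) and had the lowest total, 11418600 counts.

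High RFI library 1 was high for CHGB (595.2 CPM), GAP43 (323.8 CPM), CCK (295.6 CPM), the gene model on chromosome 25 (17.72 CPM) and SEMA3A (11.14 CPM). High RFI library 2 was high for DIO2 (279.5 CPM), BCHE (194.9 CPM), CREBBP (66.76 CPM), CCDC130 (38.85 CPM) and LHX8 (20.85 CPM), the last at 0.319 to 3.57 CPM in the rest of its group. High RFI library 4 was high for SST (136 CPM) and ASMT (2.155 CPM). High RFI library 5 was high for NPVF (51.79 CPM), GAL (41.9 CPM), TRH (14.51 CPM), SSTR2 (7.133 CPM), AHI1 (6.241 CPM) and SPAG6 (4.215 CPM), and low for ENSGALG00000052652 (18.56 CPM).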

How the results depend on the processing

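No alternative of the edgeR fit or limma-voom called a gene, and DESeq2 called 5. Leaving out 1 library gave 0 edgeR calls throughout (0 to 0), 531 to 904 genes at an unadjusted p under 0.05, 204 to 332 without overlap, which has fewer libraries to meet, 12555 to 13116 within 2-fold and 1 to 18 DESeq2 calls, 1 without low RFI library 4 or high RFI library 2 and 18 without high RFI library 1. The smallest edgeR adjusted p was 0.0819 without high RFI library 1 and 0.107 without low RFI library 1. Without the low-count filter, which adds genes, 1103 had an unadjusted p under 0.05. With RLE scaling the counts were 725 genes at that p and 136 without overlap. The labels do not say that equal numbers pair libraries. Same-numbered libraries correlated by -0.291 to 0.328, which cannot settle whether the numbers share a processing step. With the replicate number as a block 0 genes were called, 519 had an unadjusted p under 0.05 and 12835 lay within 2-fold. With 1 library left out, low minus high RFI ran from -0.0145 to 1.438 percentage points for the mitochondrial share, -35.8 to 52.05 for genes with a count and -121000 to 228700 for total counts.

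Of 118 tested genes followed, 101 kept their direction in every alternative and 17 did not, and the cause was not tested. Genes chosen by small p in the same libraries are among the 118, which favours keeping direction. In limma-voom the log2 folds of genes that turned were -0.007 for TAC1, 0.211 for GAL, -0.684 for PMCH, 0.022 for TRH, -0.002 for CRHBP, -0.020 for SSTR2 and -0.008 for BCHE. With the replicate block they were 0.038 for GAL, -0.146 for PMCH, 0.116 for TRH, -0.001 for CRHBP, -0.014 for SSTR2 and -0.007 for BCHE. With 1 library left out the ranges were -0.510 to 0.376 for UCN3, -0.528 to 0.024 for NPY, -0.058 to 0.402 for PYY, -0.113 to 0.260 for TAC1, -0.824 to 1.076 for GAL, -0.432 to 0.348 for PMCH, -1.263 to 0.251 for OXT, -0.578 to 0.687 for TRH, -0.392 to 0.231 for CRHBP, -0.209 to 0.185 for SST, -0.266 to 0.354 for SSTR2, -0.166 to 0.092 for SLC44A1, -0.138 to 0.096 for BCHE, -0.187 to 0.162 for PRIMA1, -0.140 to 1.5 for ISL1, -0.267 to 7.851 for TTR and -1.467 to 7.483 for TPH1. The spread between pools limits what can be seen: the median SE of a log2 fold was 0.162.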
